A study of Homo sapiens with 6 samples.

Results

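The genes described here encode the heat shock proteins, the DNAJ (J domain) cochaperones that work with them, and the cytosolic chaperonin TRiC, also called CCT. The rule uses gene symbols and no measured value. It takes symbols that begin with HSPA, HSPB, HSP90 or DNAJ, the TRiC subunits (CCT with a number, and TCP1), and HSPD1, HSPE1, HSPH1, HSF1, HSF2, BAG3 and CRYAB. The rule took 89 of the 20332 genes in the count table. A filter on low counts left 76 of them for testing, and 13 were not tested. The rule also took HSPBAP1, which shares only the letters, and the readthrough genes HSPB2-C11orf52 and DNAJC25-GNG10, whose exons overlap those of HSPB2 and DNAJC25.

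Heat shock proteins hold unfolded or damaged proteins and help them to fold, to be transported or to be degraded. HSP70 proteins bind and release their clients in a cycle driven by ATP, in which J proteins deliver clients and start ATP hydrolysis, and exchange factors such as the HSP110 proteins and BAG3 reset the cycle. HSP90 acts later, on kinases, steroid receptors and other clients that are nearly folded, while TRiC encloses actin, tubulin and other proteins in a chamber. Heat, proteotoxic stress and many other insults free the transcription factor HSF1, which then binds heat shock elements in front of the inducible members. Some members, such as HSPA8 and HSP90AB1, are made all the time, and a few, such as HSPA6, are made in quantity mostly under strong stress.

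RNA was sequenced from Huh-7 cells, a line established from a human hepatocellular carcinoma, in 2 groups of 3 samples. The RAC3 group came from cells in which RAC3, a small GTPase, was stably overexpressed after lentiviral transduction, and the other group was the negative control, whose genotype is given as WT. No further treatment is named for either group, and no source used here says whether the samples of a group came from separate cultures or from more than 1 transduced population, so p-values measure the spread between these RNA samples. Nor does any of them say whether the negative control cells were transduced with a virus lacking RAC3. If they were not, transduction and RAC3 cannot be told apart. The comparison asks which members differ in RNA level between cells with and without added RAC3.

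The samples held between 13855762 and 18199888 counts, and 3 counts, the limit that a count of 0 allows for counting error only, corresponded to between 0.167 and 0.215 CPM (the count of a gene relative to the TMM-scaled size of its library). RAC3 itself was at 35.6, 31.4 and 32.8 CPM in the negative controls and at 232.6, 239.6 and 225.4 CPM in the RAC3 samples. For the RAC3 samples 2 and 3 the genotype field reads RAC with another number than the title, which gives RAC3. Their RAC3 level was close to that of sample 1. All 13 of the hepatocyte genes examined, such as ALB and AFP, were expressed, with group means between 9.54 and 2367.6 CPM. Of 9 marker genes of fibroblasts, leukocytes and endothelium, 5 were below the filter on low counts, and the others had group means between 2.68 and 62.2 CPM. Of these, COL1A2 (log2 fold change 0.51, adjusted p = 9.9e-06) and CD68 (0.47, adjusted p = 0.0418) were higher, COL1A1 was lower (-0.22, adjusted p = 0.0242) and PECAM1 did not pass the test. The part of such differences in the results was not tested.

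Heat shock elements are repeats of the unit GAA, written on alternating strands and separated by any pair of bases. The stretches of promoter shown next carry such units in inducible and constitutive members that changed. Members that changed without a match, such as DNAJB9 and CCT6A, are not shown. Also not shown are DNAJA1 and TCP1, which were higher and have a match, and further matches of HSPA6, HSPA8, HSP90AB1 and DNAJB1. The stretches were read from the RefSeq promoter table (GRCh38.p14, from 250 bases before to 50 bases after the start of transcription, 5′ to 3′ on the gene's own strand), with the units of each match in capitals.
HSPA6, chr1:161524454-161524490, plus strand: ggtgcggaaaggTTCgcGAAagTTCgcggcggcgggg
HSPA1A, chr6:31815425-31815456, plus strand: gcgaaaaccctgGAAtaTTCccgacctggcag
HSPA1B, chr6:31827621-31827652, plus strand: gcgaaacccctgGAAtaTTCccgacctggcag
DNAJB1, chr19:14518425-14518486, minus strand: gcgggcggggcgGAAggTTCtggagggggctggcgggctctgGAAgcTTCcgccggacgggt
HSPB1, chr7:76302479-76302510, plus strand: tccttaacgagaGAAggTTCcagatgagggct
HSP90AA1, chr14:102087093-102087144, minus strand: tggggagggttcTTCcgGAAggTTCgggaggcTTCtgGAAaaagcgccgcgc
HSPA8, chr11:123062167-123062203, minus strand: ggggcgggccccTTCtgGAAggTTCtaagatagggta
HSP90AB1, chr6:44247819-44247855, plus strand: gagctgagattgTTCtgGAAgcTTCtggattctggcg
The stretches of HSPA6, HSP90AA1, HSPA8 and HSP90AB1 each hold 3 units in a row, and those of HSPA1A, HSPA1B, DNAJB1 and HSPB1 hold pairs of units.

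Members changed in both directions, most of them by small amounts, and HSPA6 by far the most. In the quasi-likelihood test of edgeR, with p-values adjusted by the Benjamini-Hochberg method over the 12941 genes tested, 15 of the 76 tested members were higher with RAC3 overexpression at an adjusted p below 0.05 (19.7%, beside 13.3% of all genes tested) and 12 were lower (15.8%, beside 15.3%). The share of members that were called in either direction was 35.5%, beside 28.5% of all genes. With scaling by library size alone the same count was 23 higher and 9 lower, beside 2613 and 1381 of the 12941 genes. The median log2 fold change (RAC3 over negative control) of the tested members was 0.021, beside 0.004 for all genes. At the thresholds of the study, a fold of 1.5 and an unadjusted p below 0.05, 3 members were lower (3.95%, beside 2.99%) and 0 were higher (beside 1.68%), so that 3 passed in either direction (beside 4.68%). With DESeq2 and with limma-voom 0 members were higher at these thresholds too. The 3 were HSPA6, HSPA1B and CRYAB. In 40 members (52.6%, beside 42.5% of all genes tested) the 3 values of one group did not overlap those of the other. Because whole cultures were sequenced, fewer cells making an RNA and less RNA per cell cannot be told apart.

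**Figure D1:**
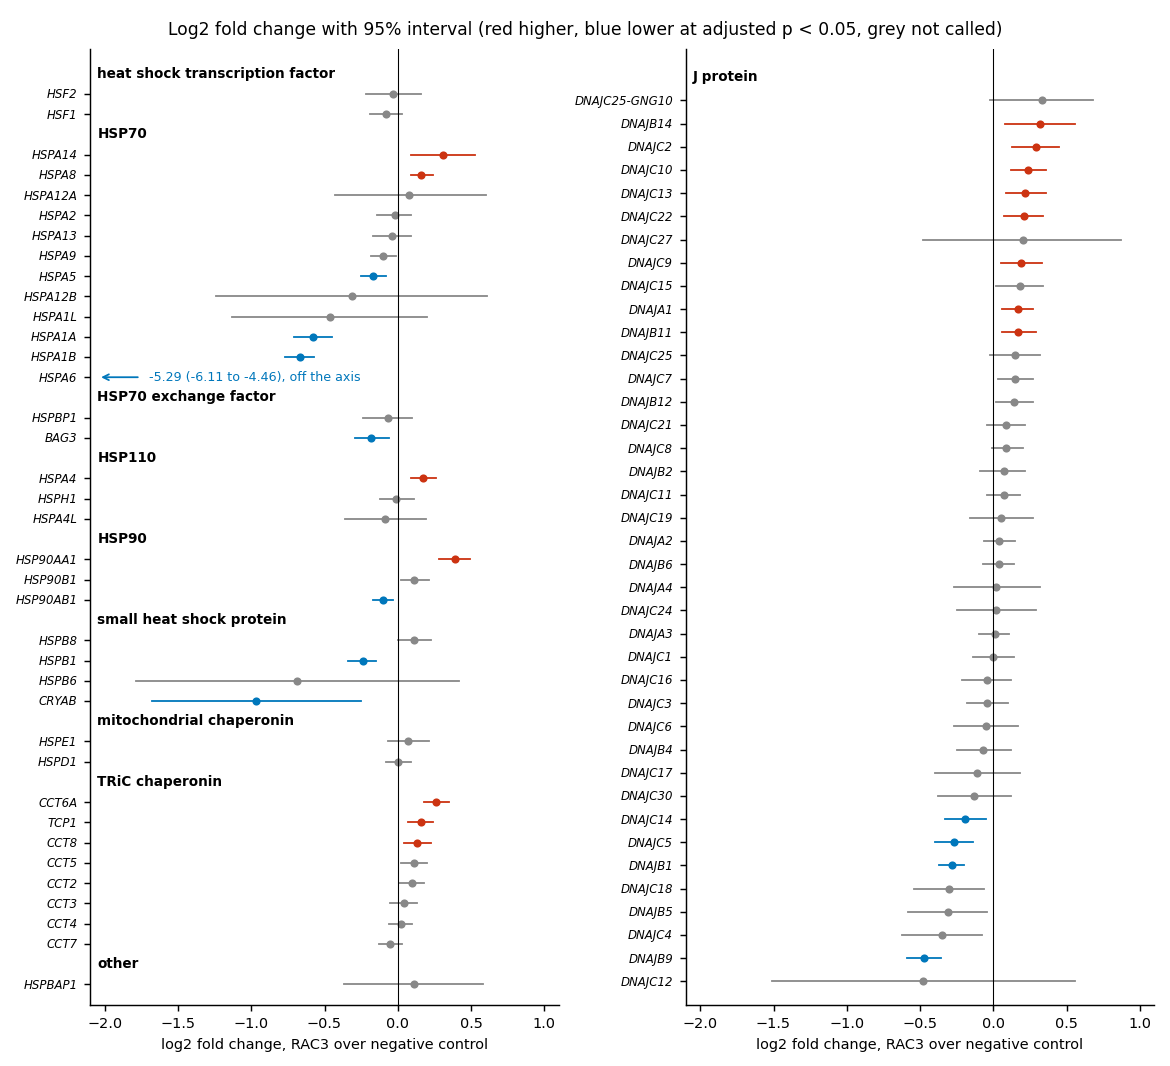
Each point is the log2 fold change (RAC3 over negative control) of a tested member with its 95% interval, grouped by family, with higher members in red, lower members in blue (both at an adjusted p below 0.05 in edgeR's quasi-likelihood test) and the rest in grey. Most members lie within a narrow band around 0, and HSPA6 at -5.29 lies off the axis.

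HSF1 and HSF2, the transcription factors that switch on heat shock genes, did not pass the test. HSF1 RNA was at 118.1, 108.2 and 112.3 CPM in the negative controls and at 102.6, 111.1 and 106 CPM with RAC3 overexpression. The groups overlapped, and the log2 fold change was -0.08 (95% interval -0.19 to 0.03, adjusted p = 0.265). HSF2 was lower in level, with 24.3 ± 2.09 CPM in the negative controls and 23.8 ± 1.86 CPM with RAC3 (SD, n = 3 each). The activity of HSF1 is set largely after translation, by its release from chaperones, its trimer formation and its phosphorylation, and RNA levels do not measure it.

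The stress-inducible HSP70 genes were lower with RAC3 overexpression. HSPA6 (ENSG00000173110, GRCh38 chromosome 1 from 161524540 to 161526910), which encodes HSP70B′, was counted 65, 87 and 90 times in control cells but only 1, 2 and 3 times after RAC3 overexpression. In normalized terms it was at 4.66, 5.79 and 5.02 CPM against 0.0563, 0.121 and 0.213 CPM. Each RAC3 sample was thus at or near the limit of detection, while each control sample was far above it. The log2 fold change of -5.29 (standard error, SE, 0.394, adjusted p = 1.7e-08) was the largest decrease among all 12941 genes tested. The ratio of the summed counts, 242 to 6, adjusted for library size, was 41.6 with a 95% counting interval from 18.8 to 114.4. The Fc receptor genes FCGR2A, FCGR2B, FCGR3A and FCGR3B next to it had between 0 and 3 counts in each sample, which is too few to compare.

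HSPA1A and HSPA1B (GRCh38 chromosome 6, from 31815464 to 31817946 and from 31827735 to 31830255) encode the same major inducible HSP70 protein from neighbouring, nearly identical genes, and the promoter stretches shown for them differ little. HSPA1A was at 351.5, 316.1 and 326.2 CPM in the negative controls and at 195, 241.6 and 228.7 CPM with RAC3 overexpression. HSPA1B was at 242.8, 252.9 and 272.1 CPM in the negative controls and at 155, 164.7 and 163.6 CPM with RAC3 overexpression. For both genes every RAC3 sample was below every control. The log2 fold change of HSPA1A was -0.58 (SE 0.0611, adjusted p = 1.4e-06) and that of HSPA1B was -0.67 (SE 0.0492, adjusted p = 1.4e-08). HSPA1A fell by 33.1%, just inside the 33.3% that a fold of 1.5 corresponds to, and HSPA1B fell by 37.1%. Since reads could be shared between the copies, the sum is the safer value. It was 594.3, 569 and 598.3 CPM in the negative controls and 350.1, 406.4 and 392.2 CPM with RAC3 overexpression, which as 1 gene gave a log2 fold change of -0.62 (SE 0.0484, adjusted p = 3.6e-08). HSPA1L, a neighbour of the pair that is used mainly in the testis, was at 1.81 CPM in the controls and did not pass the test (log2 fold change -0.46, adjusted p = 0.298).

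**Figure D2:**
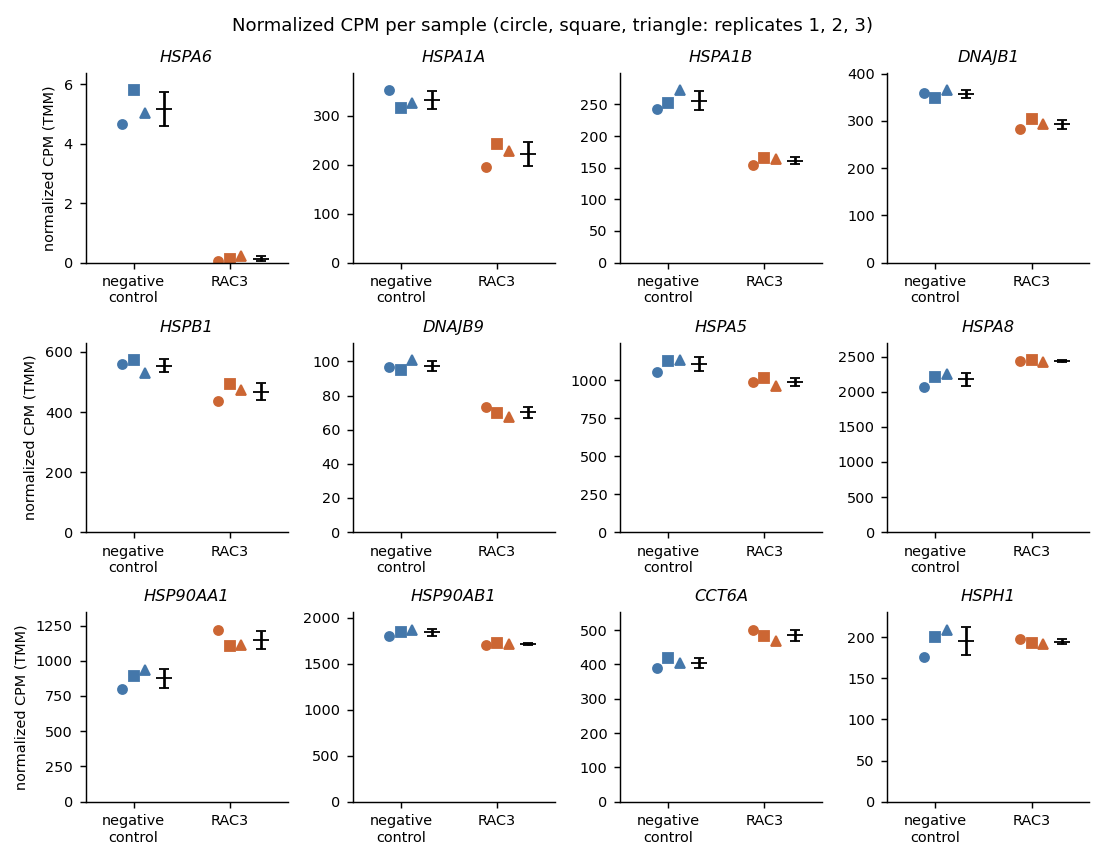
Points are the TMM-normalized CPM of 12 members in each sample (circle, square and triangle for replicates 1, 2 and 3), with the mean and SD of each group in black, on axes that start at 0. HSPA6 falls from between 4.66 and 5.79 to between 0.0563 and 0.213 CPM, HSPA1A, HSPA1B, DNAJB1, HSPB1, DNAJB9, HSPA5 and HSP90AB1 are lower without overlap, HSPA8, HSP90AA1 and CCT6A are higher without overlap, and HSPH1 overlaps.

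HSPA8, the constitutive HSP70 (HSC70) of the cytosol, was higher instead. It was at 2073.7, 2211.6 and 2251.2 CPM in the negative controls and at 2444.4, 2453.2 and 2428.2 CPM with RAC3 overexpression. The groups did not overlap, and the log2 fold change was 0.16 (SE 0.0365, adjusted p = 0.00234). Per length, in the FPKM values made by the authors, the inducible pair amounted to 0.264, 0.237 and 0.245 of the HSPA8 level in the negative controls and to 0.132, 0.153 and 0.149 of it in the RAC3 samples. HSPA14, an HSP70 that works with J protein DNAJC2 at the ribosome, was also higher (22.3 ± 3.14 against 27.7 ± 3.22 CPM, log2 fold change 0.31, adjusted p = 0.0324), though its call was lost under several of the settings given below. HSPA2, HSPA13, HSPA12A and HSPA12B did not pass the test, with log2 fold changes of -0.02, -0.04, 0.08 and -0.31.

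Of the factors that reset HSP70, HSPA4, an HSP110 protein, was at 282.6, 286.3 and 281.1 CPM in the negative controls and at 321.6, 308.6 and 328 CPM with RAC3 overexpression. It rose by 0.17 on the log2 scale (SE 0.041, adjusted p = 0.0038). HSPH1, the heat-inducible HSP110, was at 176.3, 200.4 and 209.4 CPM against 198, 193.6 and 191.7 CPM, so the groups overlapped and the log2 fold change was -0.01 (95% interval -0.12 to 0.11, adjusted p = 0.928). BAG3, which couples HSP70 to selective autophagy and is itself heat-inducible, fell slightly, from 73.4 ± 1.06 to 65.1 ± 2.7 CPM (SD, n = 3 each; log2 fold change -0.18, adjusted p = 0.0263). HSPBP1, another exchange factor, did not pass the test (log2 fold change -0.07).

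The cytosolic HSP90 genes moved in opposite directions, although the smaller change, that of HSP90AB1, was called only under some settings. HSP90AA1, the stress-responsive HSP90 alpha (GRCh38 chromosome 14 from 102080738 to 102139699), was at 799.6, 894.4 and 932.9 CPM in the negative controls and at 1221.8, 1106.8 and 1110 CPM with RAC3 overexpression. Every RAC3 sample was above every control, and its log2 fold change of 0.39 (SE 0.0504, adjusted p = 1.4e-05) was the largest increase among the members that passed the test. HSP90AB1, the constitutive HSP90 beta, was at 1803.8, 1843.5 and 1871.9 CPM against 1707, 1727.5 and 1716 CPM. It fell by 6.68% (log2 fold change -0.10, adjusted p = 0.0339), and was not called under library size scaling (-0.04, adjusted p = 0.35), with the length trend removed (-0.07, adjusted p = 0.13) or with a replicate block (adjusted p = 0.097). The FPKM of HSP90AA1 was 0.353, 0.384 and 0.396 of that of HSP90AB1 in control cells and 0.569, 0.508 and 0.512 of it with RAC3 overexpression. This ratio, and that of the inducible pair to HSPA8, were chosen after the values were seen. HSP90B1 (GRP94), the HSP90 of the endoplasmic reticulum, did not pass the test, with 416.5 ± 21.5 CPM against 450.5 ± 20.2 CPM (log2 fold change 0.11, 95% interval 0.02 to 0.21, adjusted p = 0.0693).

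The small heat shock proteins bind unfolding proteins without using ATP. Of the 4 tested, 2 were lower and 0 were higher in edgeR's test (beside 15.3% and 13.3% of all genes). None was higher at an unadjusted p below 0.05 or with DESeq2 or limma-voom, and 1, HSPB8, was higher under library size scaling or with the trend with GC content or length removed. With DESeq2 only HSPB1 was lower (CRYAB adjusted p = 0.091), and with the GC trend removed 0 were. HSPB1 (HSP27), the main one in these cells, was at 558.6, 573.2 and 529.6 CPM in the negative controls and at 437.9, 494.5 and 472.2 CPM with RAC3 overexpression. The groups did not overlap, and HSPB1 fell by 15.5% (log2 fold change -0.24, SE 0.0461, adjusted p = 0.00066). CRYAB (alpha B-crystallin), better known from lens and muscle, had 25, 24 and 29 counts against 16, 13 and 12 counts. Its log2 fold change was -0.97 (SE 0.342, adjusted p = 0.0399), and the adjusted p rose to between 0.083 and 0.11 when any 1 of the 6 samples was left out. Exons of CRYAB overlap those of HSPB2 and HSPB2-C11orf52 on the other strand, and the library kit does not mark strand, so reads of these genes cannot be told apart. HSPB8, the partner of BAG3 in selective autophagy, and HSPB6 did not pass the test (log2 fold changes 0.11 and -0.69, adjusted p = 0.138 and 0.361).

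Among the J proteins, 39 of 45 were tested, of which 8 were higher and 4 were lower (beside 13.3% and 15.3% of all genes), with a median log2 fold change of 0.04. These 39 include the readthrough gene DNAJC25-GNG10, which shares exons with DNAJC25. With the GC trend removed 6 were higher and 4 lower (beside 1262 and 1414 of 12863 genes). DNAJA1, DNAJB11, DNAJB14, DNAJC10, DNAJC13 and DNAJC9 were then no longer among the higher ones. DNAJB1 (HSP40), the heat-inducible partner of HSP70 (GRCh38 chromosome 19 from 14514770 to 14529770), was at 358.4, 348.6 and 364.5 CPM in the negative controls and at 283.9, 303.3 and 292.5 CPM with RAC3 overexpression. The groups did not overlap, and it fell by 17.9% (log2 fold change -0.28, SE 0.0417, adjusted p = 5.3e-05). DNAJA1, a J protein of the cytosol that also serves mitochondrial import, was at 163.4, 170.8 and 171.3 CPM against 203.3, 181.1 and 182.8 CPM. It was thus higher in every RAC3 sample (log2 fold change 0.17, adjusted p = 0.0187), but the adjusted p was 0.06, 0.057 and 0.11 without the control sample 1, the control sample 2 and the RAC3 sample 1. DNAJC2, which acts on new chains at the ribosome, was at 47.5 ± 5.31 CPM against 58.2 ± 3.85 CPM (log2 fold change 0.29, adjusted p = 0.00769). DNAJC5, the cysteine string protein of secretory vesicles, was at 109 ± 9.48 CPM against 90.4 ± 4.99 CPM (log2 fold change -0.27, adjusted p = 0.00349). The others that rose were DNAJB14 (0.32), DNAJC13 (0.22), a J protein of endosomes, DNAJC22 (0.21) and DNAJC9 (0.19), a histone chaperone, and DNAJC14 fell by 0.19 on the log2 scale.

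The 8 tested members assigned here to the endoplasmic reticulum were divided as well, with 2 higher, 2 lower and 4 not called (beside 28.5% of all genes called in either direction). J proteins given no location here, such as DNAJB12, DNAJB14, DNAJC14 and DNAJC18, were not counted among them. With the GC trend removed 0 of these 8 were higher and 3 were lower (beside 20.8% of all genes called in either direction). HSPA5 (BiP), the HSP70 of this compartment and a standard target of the unfolded protein response, was at 1053, 1128.8 and 1132.8 CPM in the negative controls and at 985.9, 1011.7 and 958.9 CPM with RAC3 overexpression. It fell by 10.8% (log2 fold change -0.17, SE 0.039, adjusted p = 0.00368). DNAJB9 (ERdj4), a partner of BiP that represses the stress sensor IRE1, was at 96.5, 94.9 and 100.8 CPM against 73.4, 69.5 and 67.4 CPM. The groups lay well apart, and DNAJB9 fell by 28% (log2 fold change -0.47, SE 0.0557, adjusted p = 5.2e-06). DNAJC10 (ERdj5), a disulfide reductase for proteins on their way to degradation, was at 105.9, 120.5 and 121.8 CPM against 141.5, 128.4 and 142 CPM (log2 fold change 0.24, adjusted p = 0.00469). DNAJB11 (ERdj3) was higher too (log2 fold change 0.17, adjusted p = 0.0256). With the GC trend removed DNAJC10 (0.08, adjusted p = 0.26) and DNAJB11 (0.02, adjusted p = 0.87) lost their calls and HSPA13 was lower (-0.23, adjusted p = 0.0075), while HSPA5 and DNAJB9 stayed lower. DNAJC3, DNAJC1, HSPA13 and HSP90B1 did not pass the test with TMM scaling and no correction. HSP90B1 was higher under library size scaling (0.17, adjusted p = 0.0094) and with the length trend removed (0.14, adjusted p = 0.027). With the GC trend removed HSP90B1 was at -0.00 (adjusted p = 0.94).

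Of the 8 tested members assigned here to mitochondria, 0 passed edgeR's test in either direction (beside 28.5% of all genes), and 2 had an unadjusted p below 0.05 (HSPA9 and DNAJC15), beside 1 and 2 with DESeq2 and limma-voom, which also called 0. Among the partner genes given below, which the rule does not take, the mitochondrial LONP1 (-0.38), TRAP1 (-0.37) and CLPP (-0.29) were lower. Other mitochondrial genes of that list did not pass the test. HSPA9 (mortalin), the HSP70 that pulls proteins into the matrix, was at 579.4, 601.7 and 606.1 CPM in the negative controls and at 576.4, 550.1 and 544.4 CPM with RAC3 overexpression (log2 fold change -0.10, 95% interval -0.18 to -0.01, adjusted p = 0.0711), and it passed without the control sample 1 (adjusted p = 0.04) or the RAC3 sample 1 (adjusted p = 0.029). With the GC trend removed HSPA9 was lower (-0.18) and DNAJC11 higher (0.18), with the length trend removed HSPA9 was lower, and with library size scaling DNAJC15 was higher. HSPD1 (HSP60) and HSPE1 (HSP10), the chaperonin and its lid, are made from a shared promoter. HSPD1 was at 591.3 ± 24.5 CPM against 592.5 ± 13.1 CPM (95% interval of the log2 fold change -0.08 to 0.09) and HSPE1 at 68.7 ± 4.83 CPM against 72.1 ± 5.79 CPM (-0.07 to 0.21).

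Of the 8 tested TRiC subunits, 3 were higher and 0 were lower (beside 13.3% and 15.3% of all genes), with a median log2 fold change of 0.11, and 0 were lower at an unadjusted p below 0.05 in edgeR, DESeq2 or limma-voom. CCT6A was at 389.1, 417.5 and 405.2 CPM in the negative controls and at 501.9, 484.3 and 468.7 CPM with RAC3 overexpression. Every RAC3 sample was above every control (log2 fold change 0.26, SE 0.0417, adjusted p = 0.00011). TCP1 rose by 0.16 (adjusted p = 0.00978) and CCT8 by 0.13 (adjusted p = 0.032) on the log2 scale. CCT2, CCT3, CCT4, CCT5 and CCT7 did not pass the test, with log2 fold changes of 0.10, 0.04, 0.02, 0.11 and -0.05. Each TRiC ring is built from 1 copy of every subunit. With scaling by library size alone CCT2 and CCT5 passed as well, beside 2613 higher of all 12941 genes. With the GC trend removed only CCT6A was called (CCT8 at 0.05, adjusted p = 0.39, and TCP1 at 0.08, adjusted p = 0.12), beside 1262 higher of all 12863 genes. With a replicate block CCT8 was not called (adjusted p = 0.067), beside 1484 higher of all 12941 genes. Together the TRiC subunits took 0.363, 0.381 and 0.385% of all counts in control cells against 0.413, 0.418 and 0.41% with RAC3 overexpression, and 0.374, 0.388 and 0.39% against 0.403, 0.412 and 0.403% relative to the TMM-scaled size.

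All 89 members together took 1.51, 1.59 and 1.62% of the counts in control cells and 1.68, 1.67 and 1.65% with RAC3 overexpression. Relative to the TMM-scaled library size these shares were 1.56, 1.62 and 1.64% against 1.64, 1.64 and 1.62%, so the groups overlapped on that scale. Per length, the most abundant members in the negative controls were HSPA8 with 947.1 ± 46.4 FPKM, HSP90AB1 with 705.7 ± 18.4 FPKM and HSPB1 with 698.8 ± 26.7 FPKM. The last 2 did not differ beyond their spread. CCT7 (409.1 ± 2.81 FPKM) and HSPA5 (372.5 ± 17.9 FPKM) came next. With RAC3 overexpression HSP90AA1, at 362.6 ± 23.3 FPKM, was level with HSPA5 at 343.5 ± 9.23 FPKM, whereas in the controls it was at 266.7 ± 22.4 FPKM (SD, n = 3 each).

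Of the 13 members that were not tested, 6 had 0 counts in all samples (HSPB2, HSPB3, DNAJB8, DNAJC5B, DNAJC5G and CCT8L2). HSPB2 and HSPB3 are known mainly from muscle, and DNAJB8 from the testis. The other 7 had at most 20 counts in a sample. Among these, HSPB2-C11orf52 had 6, 12 and 20 counts in control cells against 6, 0 and 0 counts with RAC3 overexpression, and CCT6B, the testis form of CCT6A, had 15, 8 and 3 counts against 10, 4 and 11 counts. HSPB9 was counted in 1 control sample, with 7 counts. DNAJB7, DNAJB13, DNAJC28 and HSPB7 had up to 11 counts in a sample.

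The genes that work with these chaperones but do not match the rule were described by a list of 40 co-chaperones, prefoldin subunits, mitochondrial proteases and ubiquitin genes. All 40 were tested, 3 were higher (7.5%, beside 13.3% of all genes) and 7 were lower (17.5%, beside 15.3%), and their median log2 fold change was 0.000. PFDN1 (0.23) and VBP1 (0.22), subunits of prefoldin, which hands actin and tubulin to TRiC, and PPID (0.22), a prolyl isomerase bound to HSP90, were higher. LONP1 (-0.38), the main protease of the mitochondrial matrix, TRAP1 (-0.37), the mitochondrial HSP90, CLPP (-0.29), BAG6 (-0.27), which guides tail-anchored proteins, and the HSP90 partner FKBP4 (-0.16) were the lower genes with the smallest p. With the GC trend removed VBP1 (0.07, adjusted p = 0.39), PPID (0.13, adjusted p = 0.2) and CLPP (-0.09, adjusted p = 0.33) lost their calls, and LONP1 was at -0.19. Without the RAC3 sample 1 PPID (adjusted p = 0.053), CLPP (adjusted p = 0.055) and FKBP4 (adjusted p = 0.061) were not called, nor was PPID without the control sample 2 (adjusted p = 0.11) or the RAC3 sample 2 (adjusted p = 0.063), or FKBP4 under library size scaling (adjusted p = 0.082). The HSP90 cochaperones AHSA1, CDC37, STIP1 and PTGES3 did not pass the test, with log2 fold changes of 0.02, 0.03, -0.00 and 0.05.

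Heat shock elements stood in promoters of members on both sides of the comparison. RefSeq promoters were found for 78 of the 89 members. In this paragraph, all genes are the 27305 genes of the promoter table, whether or not they were tested. Searched on both strands, the pair of units GAANNTTC or TTCNNGAA was present in 26 of them (33.3%), beside 16.2% of all genes, and the run GAANNTTCNNGAA or TTCNNGAANNTTC, which contains that pair, in 7 (8.97%), beside 0.608% of all genes. These 7 were DNAJA1, HSP90AA1 and HSPA8, which were higher, HSPA6 and HSP90AB1, which were lower, and DNAJB6 and HSPD1, which did not pass the test. The pair was found in 4 of the 12 higher members with a promoter, in 6 of 11 lower members and in 13 of 45 that were not called. The lower ones were HSPA6, HSPA1A, HSPA1B, DNAJB1, HSPB1 and HSP90AB1, and the higher ones were HSP90AA1, HSPA8, DNAJA1 and TCP1. Members with the 3 units in a row thus ranged from the largest increase to the largest decrease. The endoplasmic reticulum stress element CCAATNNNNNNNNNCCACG, by which HSPA5 and HSP90B1 are known to answer to misfolded protein, was present on either strand in these 2 members only (2.56%, beside 0.0916% of all genes), and HSPA5 fell while HSP90B1 did not pass the test. A match of letters is a description and not evidence of binding.

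The GC content of the longest annotated transcript of each gene moved with the result. Whether that transcript is the one made in these cells was not tested. Across the 76 tested members, which share the same 6 libraries, the log2 fold change correlated with GC content at a Spearman coefficient of -0.436 (Pearson -0.321), beside -0.512 across all genes tested. The median GC content was 43.1% in the higher members, 55.3% in the lower members and 44.7% in those not called. In the fifth of genes with the lowest GC content the median log2 fold change of all genes was 0.15, and in the fifth with the highest it was -0.18. DNAJB9, with a GC content of 40.4%, was lower against this trend, and HSPA6, HSPA1A and HSPA1B, with 58.4%, 59.7% and 58.7%, were lower along with it. When the trend with GC content was removed from each library, 10 members were higher and 12 lower. The share called was 28.9%, beside 20.8% of the 12863 genes with a GC content. Without the correction it was 35.5%, beside 28.5%. Only 12 of the 27 calls were kept, 5 of them higher and 7 lower. How many of the calls over all genes were kept was not counted. HSPA6 (-5.15), HSPA1A (-0.43), HSPA1B (-0.53), DNAJB1 (-0.22), DNAJB9 (-0.60), HSPA5 (-0.20), HSP90AB1 (-0.11), HSP90AA1 (0.34), HSPA8 (0.14), CCT6A (0.19), DNAJC2 (0.21) and DNAJC22 (0.26) kept theirs. HSPB1 was at -0.04 (adjusted p = 0.45), HSPA4 at 0.08 (adjusted p = 0.14), TCP1 at 0.08 (adjusted p = 0.12), DNAJC10 at 0.08 (adjusted p = 0.26), DNAJC5 at -0.14 (adjusted p = 0.073), BAG3 at -0.05 (adjusted p = 0.49) and CRYAB at -0.89 (adjusted p = 0.069), and these lost theirs, as did CCT8, DNAJA1, DNAJB11, DNAJB14, DNAJC9, DNAJC13, DNAJC14 and HSPA14. Another 10 members then passed the test. HSPA9 (-0.18), HSPH1 (-0.14), HSPA13 (-0.23), DNAJB4 (-0.27) and DNAJC18 (-0.35) were lower, and DNAJB12 (0.26), DNAJB2 (0.21), DNAJC11 (0.18), HSPB8 (0.20) and DNAJB6 (0.13) were higher.

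**Figure D3:**
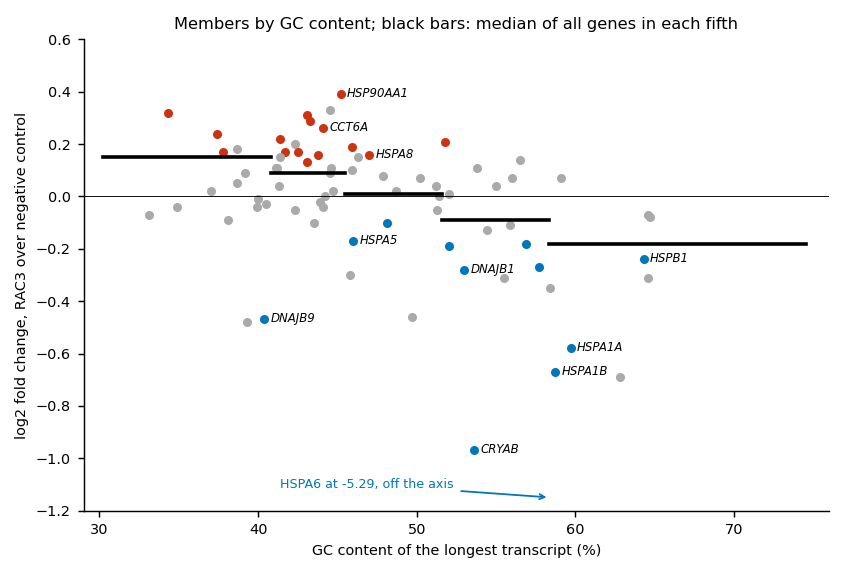
Each point is a tested member, with the GC content of its longest annotated transcript in percent on the horizontal axis. The vertical axis gives its log2 fold change (RAC3 over negative control), with higher members in red, lower members in blue and the rest in grey. Higher members gather at low GC content (median 43.1%) and lower members at high GC content (median 55.3%), with DNAJB9 among the exceptions.

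Of the 27 calls, 13 were kept in every alternative that tested the gene, other than removal of the trends with GC content and with length, 5 higher (HSP90AA1, HSPA8, HSPA4, CCT6A and DNAJC10) and 8 lower (HSPA6, HSPA1A, HSPA1B, DNAJB1, DNAJB9, HSPA5, HSPB1 and DNAJC5). When those were counted as well, 9 were kept: HSP90AA1, HSPA8 and CCT6A were higher, and HSPA6, HSPA1A, HSPA1B, DNAJB1, DNAJB9 and HSPA5 were lower. HSPA6 could not be tested where at least 10 counts were asked of every sample. The same count of kept calls over all genes was not made, so these numbers have no share of all genes beside them. The number of higher members fell to 7 of 77 without the control sample 1 and to 9 of 77 without the control sample 2. Without the RAC3 sample 1 it fell to 6 of 78. Over all genes the higher calls fell as well, to 1278 of 13114, 1217 of 13140 and 1164 of 13039 in that order. With all samples they were 1717 of 12941. HSP90AA1 was between 0.32 and 0.43 whichever sample was left out, HSPA1B between -0.71 and -0.63, and HSPA6 between -5.76 and -4.91. TCP1 lost its call without the control sample 1 (adjusted p = 0.053) or 2 (adjusted p = 0.055), and HSP90AB1 lost its call without the control sample 2 (adjusted p = 0.1), the control sample 3 (adjusted p = 0.094) or the RAC3 sample 3 (adjusted p = 0.1). The calls of CCT8, BAG3, DNAJB11, DNAJC13, DNAJC22, HSPA14, DNAJC9, DNAJB14, DNAJC2 and DNAJC14 were each lost when 1 or more of the samples was left out, with adjusted p-values up to 0.16, 0.1, 0.11, 0.072, 0.14, 0.18, 0.17, 0.23, 0.052 and 0.16.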

How the data were processed

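RNA from 3 RAC3-overexpressing and 3 negative control samples of Huh-7 cells was sequenced as polyadenylated RNA. The authors deposited raw counts per gene and sample, which were tested, and FPKM values made by the authors, which were used only for levels between genes. The authors' mean columns were not used. The submitters' processing notes name Bowtie2 2.2.8, HISAT2, StringTie 1.3.1 and DESeq2, and the genome build and annotation are not given in the sources used here. Gene positions, exon overlaps, transcript lengths and GC content came from GENCODE 29 (GRCh38), and promoters from RefSeq (GRCh38.p14). Length and GC content are those of the longest transcript of each gene, which need not be the one made in these cells.

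Tests were run with edgeR 4.0.16 under R 4.3.3. Low counts were filtered with filterByExpr (12941 kept), scaled by TMM and compared with the quasi-likelihood F test, two-sided, without covariates, and adjusted p-values are those of Benjamini and Hochberg over all genes tested. No symbol is given for 617 rows, which kept their identifiers. The biological coefficient of variation was 0.0533. An exact permutation test of 3 against 3 samples cannot go below 0.1. Samples were grouped by title. No 2 replicates had identical values, and each pair differed by more than sampling noise (chi-square per gene between 2.49 and 5.23). Same-numbered samples of the groups did not deviate together (correlations -0.0873, -0.0455 and -0.0207 over 11221 genes), so no block was used.

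The members, the lists of partner and marker genes and the motifs were chosen with earlier results of these data known. Members named are the canonical ones whatever their change, others with an adjusted p below 0.05 (up to 10 in each direction), those past the thresholds of the study and those not tested, and of the partners up to 5 in each direction. AHSA1, CDC37, STIP1, PTGES3, HSPA1L, HSPA2, HSPA12A, HSPA12B, HSPA13, HSPBP1, HSPB6, HSPB8, DNAJC1, DNAJC3, DNAJB6 and the members called only under another setting were named outside this rule, after their values were seen. Alternatives were scaling by library size, by upper quartiles or by the size factors of DESeq2, 2 other filters on low counts, the Wald test of DESeq2 1.42.0, limma-voom (limma 3.58.1), a replicate block and leaving out each sample. A correction of every library for its trend with transcript GC content or length (lowess, span 0.3) was added after seeing the data. The steps were tested on simulated data.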

Additional observations from a re-analysis of the deposited data

How the results depend on the processing

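The counts and medians kept their size, within 1.5 times or within the spread between replicates, under the alternatives other than these. With scaling by library size alone 23 members were higher and the median log2 fold change was 0.077. Over all genes 2613 of 12941 were then higher and the median was 0.060. Leaving out 1 sample gave between 6 and 14 higher members, between 8 and 14 lower members, 4 or 5 members lower at the thresholds of the study and medians between -0.003 and 0.024. With 1 sample left out, between 22.1 and 31.2% of the members were called, beside between 20.2 and 25.4% of all genes. Without a filter on low counts 5 members were lower at the thresholds of the study, the added ones being HSPB2-C11orf52 and HSPB9.

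Of the 49 tested members that were not called, 28 changed direction in at least 1 alternative, and of the 27 called 0 did. Of the uncalled members named with values as canonical ones, direction changed as follows. Without the GC trend HSF1 was at 0.12, HSP90B1 at -0.00, HSPD1 at -0.07 and CCT4 at -0.04. Under library size scaling HSF2 was at 0.02, HSPH1 at 0.05 and CCT7 at 0.01. HSF2 was at 0.00 without the length trend. HSPD1 was at -0.00 without a filter and with a minimum of 10 counts per sample. With 1 sample left out HSF2 lay between -0.10 and 0.02, HSPH1 between -0.08 and 0.04, HSPD1 between -0.03 and 0.02, CCT3 between -0.01 and 0.08 and CCT4 between -0.00 and 0.04.

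With a replicate block 14 members were higher and 8 were lower (28.9% called, beside 25.2% of all genes). HSP90AB1, BAG3, CRYAB, CCT8 and DNAJC14 were no longer called, and the numbers were not found to pair the samples. The cause of these differences was not tested. Depth limits HSPA6 in the RAC3 samples (6 counts in all), CRYAB and the 13 members that were not tested.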
